A study of Mus musculus with 18 samples.

Results

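Expression of the syndecans, the glypicans and the heparanases was compared across 3 mouse models of mammary cancer and normal mammary gland. The 10 genes, taken by symbol from 55450 genes in the count file, were the syndecans Sdc1, Sdc2, Sdc3 and Sdc4, the glypicans Gpc1, Gpc3, Gpc4 and Gpc6, the heparanase Hpse and its relative Hpse2. The group was chosen by the measured fall of Hpse2, which was among the largest in tumors carrying the T121 transgene. Values of Hpse2 are therefore given as a description, without a test, and the tests and counts of called genes cover the other 9. All 10 genes passed the filter on low counts.

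Tumors arose in C57Bl/6 female mice after Cre recombinase was delivered to the ducts of adults by adenovirus injected at the nipple, and RNA from 1 tumor or gland per mouse was sequenced. B1/P/Rbf tumors carried Brca1fl/fl, Trp53fl/fl and TgK18GT121Tg/+, B1/P tumors carried only the 2 floxed genes, and P/Rbf tumors carried Trp53fl/fl and TgK18GT121Tg/+ (n = 5 each). Loss of Trp53 was thus shared by all tumors, and by RT-qPCR the loss of Brca1 expression was only partial in B1/P/Rbf tumor 3. T121, a fragment of the SV40 large T antigen, binds and inactivates pRb, p107 and p130, and the keratin 18 promoter restricts it to epithelial cells. Normal glands came from wild type mice of the same strain (n = 3). The tumors held stroma as well as epithelium, so fewer cells of a type and less RNA per cell cannot be told apart in these data.

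Syndecans and glypicans are the core proteins that carry heparan sulfate chains on the cell surface. Syndecans span the membrane, glypicans are held on it by a lipid anchor, and the chains bind growth factors, Wnt and Hedgehog ligands and matrix proteins. Heparanase cuts the chains, which releases bound factors and loosens basement membrane, while heparanase 2, the product of Hpse2, binds heparan sulfate without cutting it and can hold heparanase back. In the mammary gland syndecan-1 is the main syndecan of the epithelium.

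The libraries held 27661173 to 37794889 expected counts, and 19186 genes were tested. Values are CPM, counts relative to the library's total after scaling by the TMM method, with factors of 0.952 to 1.114 in tumors and 0.788 to 0.858 in glands. Trp53 lay at 6.75 to 24.3 CPM in tumors and at 54.4 to 71.8 CPM in glands. Brca1 was at 29.8 ± 8.97 CPM in B1/P/Rbf, 15.3 ± 8.78 CPM in B1/P, 79.0 ± 32.7 CPM in P/Rbf and 5.45 ± 0.735 CPM in normal gland (SD), and counts over a whole gene do not show which exons were deleted. Luminal epithelial markers (Epcam, Krt8, Krt18, Cdh1 and Krt19) summed to 683 to 12263 CPM in every library, and all 5 were above the floor except Krt19 in B1/P tumor 3, with 1 count. Adipocyte markers summed to 9182 CPM or more in each gland and to at most 172 CPM in each tumor. Lymphocyte markers summed to 280 to 370 CPM in glands and to at most 8.93 CPM in each tumor. Comparisons with the gland are thus also comparisons between tissues of different makeup.

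**Figure D1:**
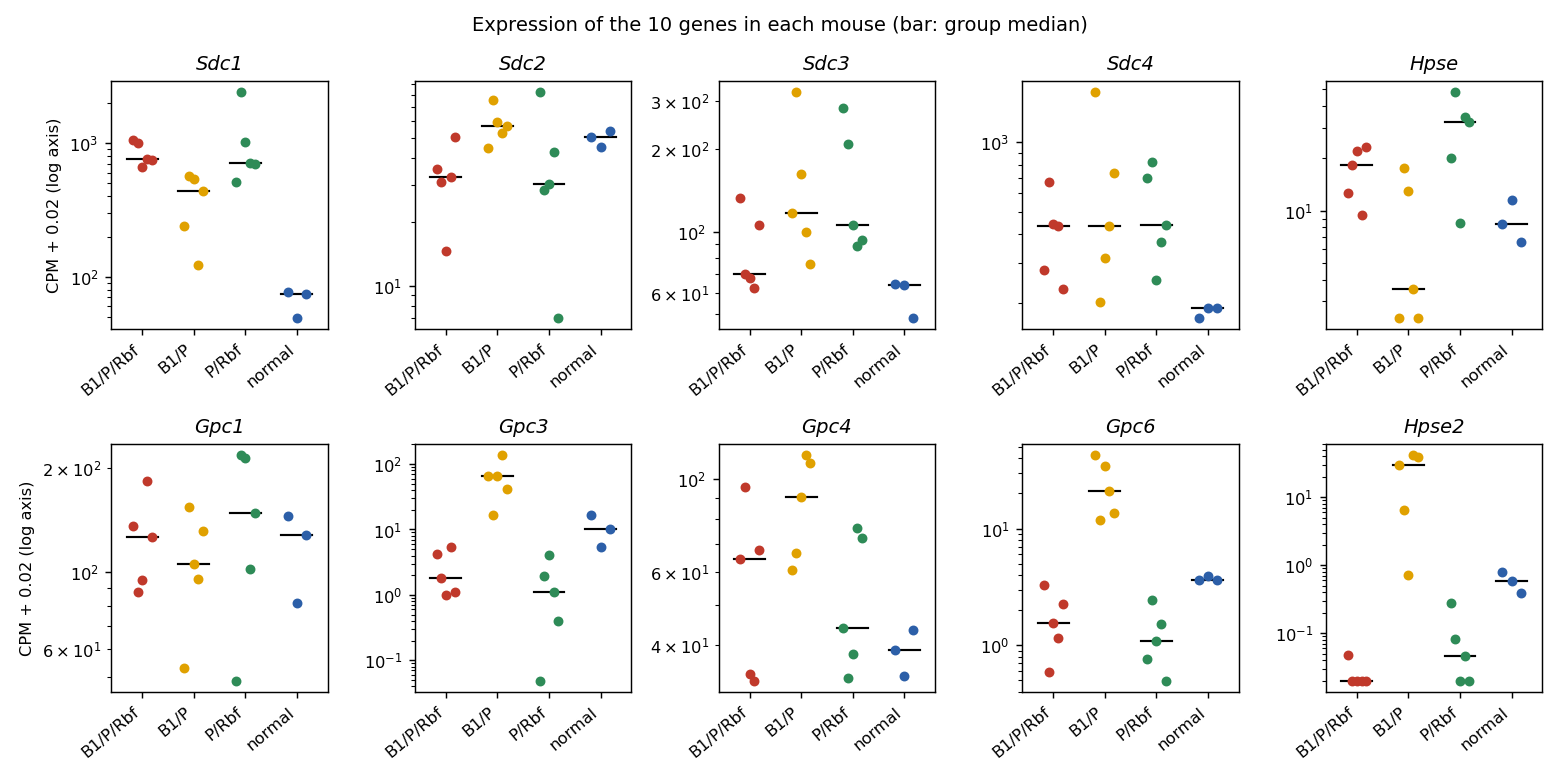
Expression of the 10 genes in each mouse as CPM plus 0.02 on a log axis, by group, with a bar at the group median. Gpc3, Gpc6 and Hpse2 were lower in all 10 tumors with T121 than in all 5 B1/P tumors, while Gpc1 overlapped between all 4 groups.

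Hpse2, which spans chr19:42786539-43388355 (GRCm38, as are all positions below), was present in B1/P tumors and close to absent from tumors with T121. The 5 B1/P tumors held 30.3, 6.52, 0.70, 41.8 and 38.9 CPM, from 953, 220, 28, 1414 and 1234 counts. The B1/P/Rbf tumors gave 1 count in tumor 1 and none in the other 4, and the P/Rbf tumors gave 9, 2, 0, 1 and 0 counts. Every tumor with T121 was thus below every B1/P tumor, and tumor 3 of B1/P stood apart from the other 4 B1/P tumors at a level within the range of the glands. The floor was set at 3 counts in a library, which is 0.0759 to 0.102 CPM in the tumors with T121, and all 5 B1/P/Rbf tumors were at or under it. Against that floor the B1/P mean of 23.6 ± 18.9 CPM (SD, n = 5) was at least 280.02-fold higher. P/Rbf tumors averaged 0.0697 ± 0.109 CPM (SD, n = 5), with 1 tumor above the floor at 0.259 CPM. Normal glands lay between these levels, at 0.782, 0.556 and 0.372 CPM, from 20, 17 and 11 counts.

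Hpse, the active heparanase at chr5:100679484-100719716, was not low with T121. Its levels were 12.6, 18.2, 22.0, 9.41 and 23.3 CPM in B1/P/Rbf tumors and 20.1, 48.1, 8.43, 34.7 and 32.5 CPM in P/Rbf tumors. In B1/P tumors they were 2.38, 17.5, 13.0, 3.52 and 2.40 CPM, and in glands 8.40, 11.4 and 6.53 CPM. Tumors 1, 4 and 5 of B1/P, which had the most Hpse2, had the least Hpse of all 18 samples. Hpse rose in P/Rbf against B1/P tumors by 1.89 on the log2 scale (SE 0.57, adjusted p = 0.0288, edgeR quasi-likelihood test with Benjamini-Hochberg adjustment over all genes), with overlapping groups. That call depended on which tumors were included, with log2 changes of 1.62 to 2.43 on leaving out 1 tumor. It was lost without B1/P tumor 1, 4 or 5 or P/Rbf tumor 2, 4 or 5, with log2 changes of 1.62 to 1.84 and adjusted p of 0.0511 to 0.0632 in edgeR, and when only these groups were fitted (adjusted p = 0.0959). With a term for library set it held at a larger log2 change of 3.28 (edgeR adjusted p = 0.0136). In B1/P/Rbf against B1/P tumors the log2 change was 1.14 (SE 0.56, edgeR adjusted p = 0.174), and it passed the threshold only without B1/P tumor 2 (1.68, adjusted p = 0.0466).

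The 5′ flanks of Hpse2, Hpse and Gpc3 are shown because Hpse2 and Gpc3 were both low with T121 while Hpse was not. Each is the 250 bases before the gene's RefSeq start on GRCm38.p6, on the strand of the gene, with GC boxes (GGGCGG or its complement CCGCCC) in capitals.
Hpse2, chr19:43388356-43388605, minus strand: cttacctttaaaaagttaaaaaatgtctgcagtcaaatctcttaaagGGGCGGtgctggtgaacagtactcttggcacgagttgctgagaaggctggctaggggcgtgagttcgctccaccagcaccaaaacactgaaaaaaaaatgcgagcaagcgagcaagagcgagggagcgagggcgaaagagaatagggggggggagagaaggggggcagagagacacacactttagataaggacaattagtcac
Hpse, chr5:100719717-100719966, minus strand: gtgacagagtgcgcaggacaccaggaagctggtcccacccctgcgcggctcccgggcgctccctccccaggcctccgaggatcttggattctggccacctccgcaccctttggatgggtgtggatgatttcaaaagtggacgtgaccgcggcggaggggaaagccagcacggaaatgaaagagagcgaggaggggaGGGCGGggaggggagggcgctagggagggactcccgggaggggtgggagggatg
Gpc3, chrX:52613975-52614224, minus strand: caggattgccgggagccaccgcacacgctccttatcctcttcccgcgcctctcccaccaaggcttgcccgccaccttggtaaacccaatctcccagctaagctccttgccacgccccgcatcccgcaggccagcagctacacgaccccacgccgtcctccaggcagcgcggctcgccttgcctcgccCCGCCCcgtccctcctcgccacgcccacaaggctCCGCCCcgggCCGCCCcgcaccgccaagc
The flank of Hpse2 was the least CpG-rich of the 3, with 9 CpG and 50.0% GC, against 16 CpG and 66.8% for Hpse and 25 CpG and 71.6% for Gpc3. The medians over 32851 promoters in the same RefSeq table were 6 CpG and 52.4% GC. GC boxes numbered 1 in Hpse2, 1 in Hpse and 3 in Gpc3, and 32.7% of all those promoters hold at least 1. None of the 3 windows holds TATAAA (found in 12.4% of all promoters), TTTNNCGC, an E2F-type motif (4.28%), CAGGTG, an E-box (17.2%), or TGANTCA, an AP-1 motif (6.75%), on either strand. The Gpc3 window also lies within A630012P03Rik, a noncoding gene on the opposite strand, which had at most 15 counts in any sample. Flanks of 7 of the 10 genes were in the table, and those of Sdc2, Gpc1 and Gpc6 were not used here.

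Gpc3 and Gpc6 fell in both kinds of T121 tumor. Gpc3 encodes glypican-3, which restrains Hedgehog signaling and growth of the embryo, and lies on chrX:52272426-52613950. It was at 66.2, 16.6, 66.3, 138 and 41.0 CPM in B1/P tumors. Levels in B1/P/Rbf tumors were 4.25, 1.78, 0.993, 5.38 and 1.10 CPM, and those in P/Rbf tumors were 0.0288, 1.96, 4.07, 1.08 and 0.374 CPM. The highest tumor with T121, number 4 of B1/P/Rbf, was thus still below the lowest B1/P tumor, number 2, and P/Rbf tumor 1 had a single count of Gpc3. The log2 change against B1/P tumors was -4.60 (SE 0.89) in B1/P/Rbf and -5.44 (SE 0.93) in P/Rbf tumors, with edgeR adjusted p of 0.00275 and 0.00136. Glands, at 16.4, 5.30 and 10.1 CPM, lay between the B1/P tumors and the P/Rbf tumors, and B1/P/Rbf tumor 4 reached the lowest gland.

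Gpc6, another glypican, spans chr14:116925315-117976544. B1/P tumors held 42.6, 11.8, 34.4, 20.8 and 13.4 CPM. B1/P/Rbf tumors held 3.23, 0.567, 1.54, 1.14 and 2.24 CPM and P/Rbf tumors 0.748, 2.40, 1.06, 1.5003 and 0.477 CPM. All 10 tumors with T121 were also below the 3 glands, which lay close together at 3.63, 3.89 and 3.62 CPM. The log2 change against B1/P tumors was -3.82 (SE 0.55) in B1/P/Rbf and -4.31 (SE 0.56) in P/Rbf tumors, with edgeR adjusted p of 0.000476 and 0.000233. The calls of Gpc3 and Gpc6 in these 2 comparisons held in edgeR, DESeq2 and limma-voom and without any single tumor, over log2 changes of -6.25 to -4.13 for Gpc3 and of -4.69 to -3.53 for Gpc6. The methods' filter on low values, which asks for log2 CPM of 6 or more in 6 samples, removed both genes together with Sdc2, Hpse and Hpse2.

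Gpc4 lies 107 kb from Gpc3 on the X chromosome, at chrX:52053021-52165252 and with no annotated gene between them, and overlapped between the tumor groups. Its levels in B1/P tumors were 60.4, 66.6, 90.6, 114 and 109 CPM. B1/P/Rbf tumors were at 64.4, 95.3, 34.1, 32.9 and 67.45 CPM and P/Rbf tumors at 44.1, 33.4, 38.04, 76.2 and 72.1 CPM. Both ranges overlapped that of B1/P, and the log2 changes were -0.58 (SE 0.31, edgeR adjusted p = 0.212) and -0.74 (SE 0.31, edgeR adjusted p = 0.102). Gpc1, the glypican with the most even level, was at 126 ± 38.3 CPM in B1/P/Rbf, 108 ± 38.2 in B1/P, 146 ± 72.6 in P/Rbf and 118 ± 33.1 in glands (SD). Its log2 changes ran from -0.22 to 0.44 over the 6 comparisons, none of them past the threshold in edgeR. Exons of Gpc1 overlap those of Ankmy1 on the opposite strand, which had at most 140 counts in a sample, while Gpc1 had at least 1673. Of the remaining glypicans, Gpc5 had too few counts to test. Gpc2 had a log2 change of -1.997 (SE 0.86, edgeR adjusted p = 0.12) in B1/P/Rbf against B1/P tumors, and was called by DESeq2 (adjusted p = 0.0481) and without B1/P/Rbf tumor 4.

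Sdc1, the epithelial syndecan, encoded at chr12:8771323-8793715, rose in all tumors against gland and was highest with T121. Glands held 77.4, 49.1 and 74.4 CPM and B1/P tumors 242, 568, 543, 123 and 437 CPM. B1/P/Rbf tumors were at 1053, 1001, 667, 759 and 748 CPM and P/Rbf tumors at 508, 2409, 1016, 717 and 699.5 CPM. Every B1/P/Rbf tumor was above every B1/P tumor, whereas P/Rbf tumor 1 was below B1/P tumors 2 and 3 and P/Rbf tumor 2 stood far above the rest. In P/Rbf against B1/P tumors Sdc1 rose by 1.48 on the log2 scale (SE 0.43, edgeR adjusted p = 0.0231). This call was lost without P/Rbf tumor 2 (0.94, edgeR adjusted p = 0.0743), without B1/P tumor 1 (1.35, adjusted p = 0.0544), when only these groups were fitted (adjusted p = 0.0909) and with a term for library set (1.93, adjusted p = 0.0552). In B1/P/Rbf against B1/P tumors the log2 change of 1.14 (SE 0.42, adjusted p = 0.0728) missed the threshold in edgeR. Of the alternatives run, only DESeq2 and limma-voom called it (adjusted p = 0.0402 and 0.0389). Between tumor groups luminal epithelial markers moved with Sdc1, with medians of their summed level of 5118 CPM in B1/P/Rbf, 7480 in P/Rbf and 1736 in B1/P tumors. The median in glands, 2150 CPM, was above that of B1/P tumors, where Sdc1 was higher. The part of these cells in the level of Sdc1 was not tested.

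Sdc4, a syndecan of cell-matrix adhesions found in most cell types, was at 277, 672, 442, 434.5 and 230.2 CPM in B1/P/Rbf tumors. B1/P tumors spread most widely, at 1647, 202, 313, 432.5 and 734 CPM, and P/Rbf tumors were at 702, 821, 252, 367 and 435 CPM. All 15 tumors exceeded the 3 glands, at 172, 191 and 190.3 CPM, while the tumor groups overlapped. Sdc3, best known from neural tissue, reached 322 CPM in B1/P tumor 2 and 282 CPM in P/Rbf tumor 1, with medians of 69.9 CPM in B1/P/Rbf, 117 in B1/P, 105 in P/Rbf and 64.1 in glands. Sdc2, a syndecan of fibroblasts and endothelium, was at 32.9 ± 12.8 CPM in B1/P/Rbf, 57.9 ± 11.4 in B1/P, 38.2 ± 27.8 in P/Rbf and 50.0 ± 4.39 in glands (SD). None of Sdc2, Sdc3 and Sdc4 passed the threshold between tumor groups in edgeR, with adjusted p of 0.165 to 1.

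**Figure D2:**
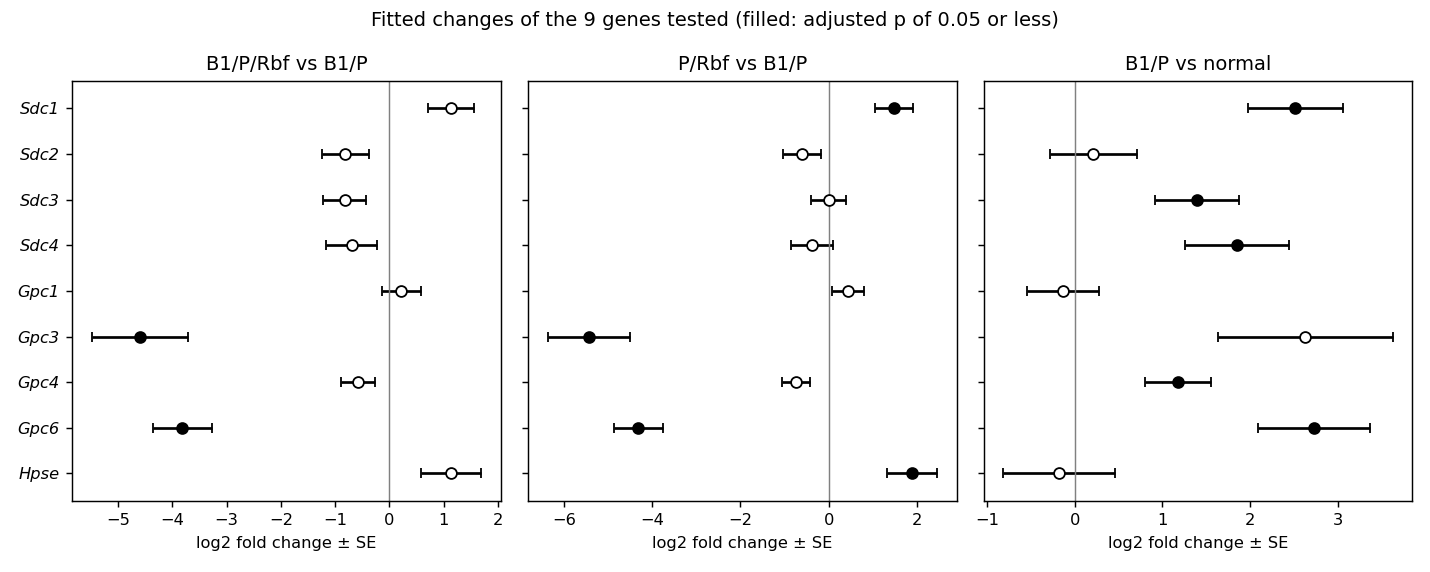
Fitted log2 fold change with its SE for each gene in 3 of the comparisons, filled where the adjusted p was 0.05 or less, without Hpse2. Gpc3 and Gpc6 stood apart on the left in both comparisons with B1/P tumors, at -5.44 to -3.82, and 5 genes were filled on the right in B1/P tumors against gland.

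Of the 9 genes tested, 2 fell and none rose in B1/P/Rbf against B1/P tumors, beside 16.7% of all genes called, 7.36% higher and 9.29% lower. In P/Rbf against B1/P tumors 2 rose (Sdc1 and Hpse) and 2 fell (Gpc3 and Gpc6), beside 19.2% of all genes called, 8.43% higher and 10.8% lower. The groups did not overlap for 3 of the 9 genes in the first of these comparisons (Sdc1, Gpc3 and Gpc6) and for 2 in the second (Gpc3 and Gpc6), against 10.5% and 8.86% of all genes. The genes' median log2 change was -0.70 and -0.37, that of all genes -0.06 and -0.05. These 2 comparisons share the B1/P tumors.

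In B1/P/Rbf against P/Rbf tumors none of the 9 genes passed the threshold in edgeR, DESeq2 or limma-voom, nor in edgeR without any 1 tumor, number 3 of B1/P/Rbf included, 0 had an unadjusted p under 0.05 in edgeR, and 0.281% of all genes were called, 0.219% higher and 0.0625% lower. The groups overlapped for all 9, while they did not for 3.02% of all genes. The lowest was that of Sdc3, with a log2 change of -0.83 (SE 0.40, unadjusted p = 0.0525). Gpc3 had a log2 change of 0.84 (SE 0.79, edgeR adjusted p = 0.655) and Gpc6 of 0.49 (SE 0.50, adjusted p = 0.681).

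B1/P tumors exceeded the normal gland in 5 of the 9 genes and fell below it in none, beside 33.8% of all genes called, 16.8% higher and 16.9% lower. The log2 changes of the 5 were 2.73 for Gpc6 (SE 0.64), 2.51 for Sdc1 (SE 0.54), 1.85 for Sdc4 (SE 0.59), 1.40 for Sdc3 (SE 0.48) and 1.181 for Gpc4 (SE 0.37), with edgeR adjusted p of 0.00355, 0.00195, 0.023, 0.0331 and 0.022. Each of these separated the 5 tumors from the 3 glands, as did 41.4% of all genes. Gpc3 separated them too, with a log2 change of 2.63 (SE 1.00) at an edgeR adjusted p of 0.051. It was called by DESeq2 and by limma-voom (adjusted p = 0.0108 and 0.0119). In edgeR it was called without B1/P tumor 2, without TMM and when only these groups were fitted (adjusted p = 0.0356, 0.0281 and 0.0151). The calls of Sdc3, Sdc4 and Gpc4 were each lost on leaving out any 1 of the 3 glands, that of Sdc4 also without B1/P tumor 1 (1.19), with a term for library set and when only these groups were fitted (edgeR adjusted p = 0.0876 and 0.0524). Sdc3 lost its call also without B1/P tumor 2 (0.95), with a term for library set (0.58, edgeR adjusted p = 0.424) and with the methods' filter, and Gpc4 with the methods' filter (edgeR adjusted p = 0.0689 and 0.073).

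In B1/P/Rbf against gland only Sdc1 was called among 9 genes, at a log2 change of 3.66 (SE 0.58, edgeR adjusted p = 0.000115; 2.97 with a term for library set), beside 37.0% of all genes called, 17.1% higher. P/Rbf tumors gave 2 rises, Sdc1 (4.00, SE 0.59, edgeR adjusted p = 5.82e-05) and Sdc3 (1.40, SE 0.48, adjusted p = 0.0301), and 2 falls, Gpc3 (-2.81, SE 0.89, adjusted p = 0.0199) and Gpc6 (-1.58, SE 0.56, adjusted p = 0.0336), beside 37.7% of all genes called, 17.4% higher and 20.3% lower. The groups did not overlap for Sdc1, Sdc4 and Gpc6 in B1/P/Rbf against gland and for Sdc1, Sdc3, Sdc4, Gpc3 and Gpc6 in P/Rbf against gland, as for 50.5% and 46.5% of all genes. These 3 comparisons share the glands. Of these 4, Sdc1 kept its call under every alternative run, with log2 changes of 3.46 to 4.27. Gpc6 lost its call without any 1 gland, without P/Rbf tumor 1, 3 or 5, without TMM (-1.32) and in limma-voom (-0.79, adjusted p = 0.395). Sdc3 lost its call without any 1 gland, without P/Rbf tumor 1 or 2, in limma-voom (1.12, adjusted p = 0.0553) and with the methods' filter (0.99). Gpc3 lost its call without gland 1 (-2.31), when only these groups were fitted and in limma-voom, and fell further without P/Rbf tumor 3 (-3.62). Hpse, at 1.71 (SE 0.68, edgeR adjusted p = 0.0577), was called in P/Rbf tumors by DESeq2 and limma-voom, without TMM, when only these groups were fitted and with a term for library set (adjusted p of 0.0215 to 0.0321). Sdc4, at 1.48 (SE 0.58, edgeR adjusted p = 0.0534), was called by DESeq2, without TMM and when only these groups were fitted. In B1/P/Rbf tumors Sdc4 and Gpc4 were called without TMM, and Sdc4 and Gpc3 when only these groups were fitted. Scaling to library size without TMM moved the median of all genes upward in tumors by 0.35, 0.37 and 0.27 on the log2 scale for B1/P, B1/P/Rbf and P/Rbf against gland.

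Compared per kilobase of exon, the syndecans were the more abundant family, and its makeup differed between groups. The 4 syndecans together came to 114 ± 3.26 CPM per kb in glands, 404 ± 202 in B1/P, 407 ± 86.1 in B1/P/Rbf and 520.1 ± 271 in P/Rbf tumors (SD). Sdc4 made up 63.5% of the family in glands and 58.5% in B1/P tumors, and Sdc1 made up 55.0% in B1/P/Rbf and 52.2% in P/Rbf tumors (means of mice). The leading syndecan was Sdc4 in all 3 glands and in B1/P tumors 1, 4 and 5, where it reached 87.1% in tumor 1, and Sdc1 in 8 of the 10 tumors with T121. Sdc2 held 12.4% of the family in glands and 2.36 to 4.88% in the tumor groups (means of mice). The order of Sdc1 and Sdc4 was thus not shared by all tumors of any group.

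The 6 glypicans together came to 43.3 ± 9.78 CPM per kb in glands, 49.9 ± 9.61 in B1/P/Rbf, 51.9 ± 12.3 in P/Rbf and 90.4 ± 23.8 in B1/P tumors (SD), and the 5 B1/P tumors all exceeded the other 13 samples. Gpc3 was 25.3% of the family in B1/P tumors and the leading glypican in tumors 1 and 4 of B1/P, against 8.70% in glands, 1.92% in B1/P/Rbf and 0.971% in P/Rbf tumors. Gpc1 held 24.9% and Gpc4 36.8% in B1/P tumors, and Gpc1 led in all 3 glands. Gpc2 varied widely, with 0.905 to 16.1% of the family in B1/P, 0.411 to 16.7% in P/Rbf and 0.933 to 10.04% in B1/P/Rbf tumors, against 2.14 to 3.32% in glands. Gpc6 was a minor glypican throughout, with 4.48% of the family in B1/P tumors and 0.376 to 1.40% elsewhere. Hpse and Hpse2 averaged 2.21 and 5.11 CPM per kb in B1/P tumors, where Gpc6 was at 3.83, and 4.87 and 0.00123 in B1/P/Rbf tumors, where Gpc3 and Gpc6 were at 1.004 and 0.272.

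**Figure D3:**
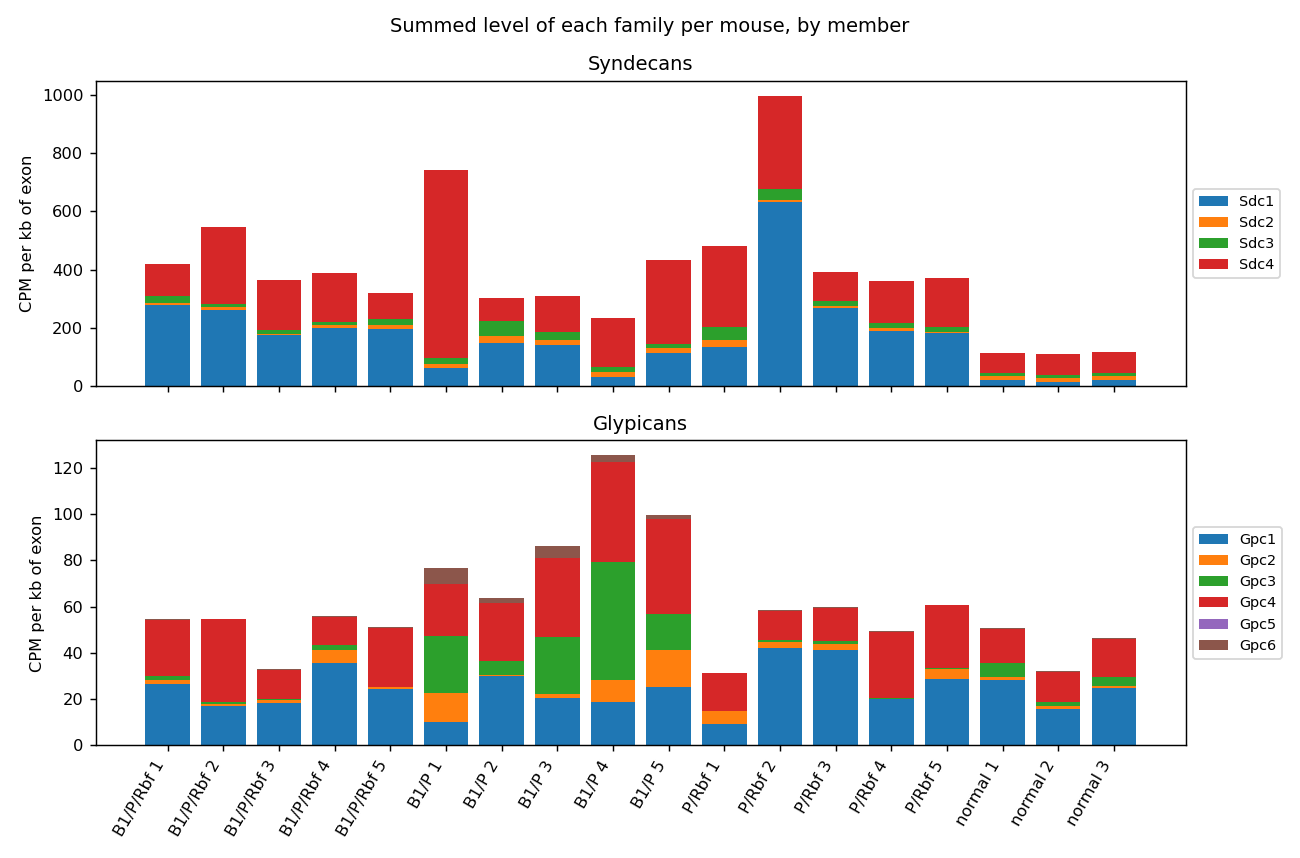
Summed level of the syndecans (top) and of the 6 glypicans (bottom) in each mouse as CPM per kb of exon, stacked by gene. Sdc1 was the larger part of the syndecans in most tumors with T121, and Gpc3 was visible mainly in B1/P tumors, whose glypican sums of 63.6 to 126 exceeded those of all other mice.

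Genes that build, trim and use heparan sulfate were counted in 7 lists. The counts stand beside 16.7% and 19.2% of all genes called in B1/P/Rbf and P/Rbf against B1/P tumors, and 33.8%, 37.0% and 37.7% in B1/P, B1/P/Rbf and P/Rbf tumors against gland. Among the 11 tested genes of chain synthesis, 1 rose and 2 fell in B1/P/Rbf against B1/P tumors. Extl1, an exostosin-like glycosyltransferase, fell from 44.3 ± 16.0 to 3.44 ± 4.31 CPM (log2 change -3.69, SE 0.72, edgeR adjusted p = 0.00287), and fell in P/Rbf tumors as well (-5.08, SE 0.77, adjusted p = 0.000727). Fam20b, the kinase that phosphorylates the linker xylose, rose from 110 ± 15.0 to 180.1 ± 34.5 CPM (0.71, SE 0.19, adjusted p = 0.0154), and B4galt7, a linker galactosyltransferase, fell by 0.63 on the log2 scale (adjusted p = 0.0497). Without 1 tumor the fall of Extl1 in B1/P/Rbf tumors ran from -4.86, without B1/P/Rbf tumor 5, to -3.43. Groups did not overlap for Extl1 and Fam20b, while the B4galt7 call was lost in 14 of 16 alternatives and that of Fam20b with a term for library set. Against gland, Ext1, a subunit of the chain polymerase, was the 1 gene of this list called in B1/P tumors (1.98, SE 0.66, adjusted p = 0.0277), a call lost without any 1 gland, without B1/P tumor 2 and with a term for library set.

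Sulfation genes moved in both directions within the same comparison. Of 18 tested, 2 rose and 2 fell in B1/P/Rbf against B1/P tumors, beside 7.36% of all genes called higher and 9.29% lower. The 2 rises include Hs6st3, whose call is descriptive only. Hs3st1, a 3-O-sulfotransferase, fell from 14.8 ± 7.19 to 1.54 ± 0.815 CPM (-3.26, SE 0.48, edgeR adjusted p = 0.000589) and Hs6st2, a 6-O-sulfotransferase, from 9.25 ± 5.14 to 3.09 ± 1.38 CPM (-1.58, SE 0.51, adjusted p = 0.0422). Their relatives rose from low levels, Hs6st3 from 0.0437 ± 0.0527 to 2.42 ± 1.38 CPM (5.64, SE 1.34, adjusted p = 0.0094) and Hs3st5 from 0.0678 ± 0.0884 to 0.862 ± 0.776 CPM (3.62, SE 0.90, adjusted p = 0.0121). Hs6st3 had at most 5 counts in any B1/P tumor and at least 25 in each B1/P/Rbf tumor. It passed the filter on low counts through the B1/P/Rbf tumors alone, so its log2 change and call are descriptive only. Without 1 tumor the log2 change of Hs6st3 ran from 5.33 to 6.50, again as a description. That of Hs3st5 ran from 3.19 to 4.72 without 1 tumor and kept its call, and was 4.73 with a term for library set. Hs3st1 fell in P/Rbf tumors too (-4.04, SE 0.50, adjusted p = 0.000194, with -3.39 in limma-voom) and was the 1 called gene of the list there. Hs3st5 was also the 1 gene of all 7 lists called in B1/P/Rbf against P/Rbf tumors (edgeR adjusted p = 0.0224). P/Rbf tumors were at the floor, with at most 1 count each, and the B1/P/Rbf mean was at least 9.84-fold higher than that floor. The call was lost with a term for library set, without B1/P/Rbf tumor 2 and without P/Rbf tumor 1, 2, 3 or 4. The Hs6st2 fall was lost without B1/P/Rbf tumor 2, 3, 4 or 5 and without B1/P tumor 2, 3 or 4, and in 4 of 6 other settings, the term for library set among them. In B1/P tumors against gland 5 sulfation genes rose, led by Hs6st2 (2.36, SE 0.64), Hs6st1 (2.17, SE 0.53) and Hs3st1 (1.86, SE 0.55, a call lost without gland 2 or 3 and with a term for library set), and 2 fell, Hs3st5 (-5.62, SE 1.00) and Papss2 (-3.18, SE 0.63), which makes the sulfate donor. Of all genes 16.8% were called higher and 16.9% lower in that comparison. The 5 rises became 3 without gland 2 or 3 or with a term for library set, 2 with the methods' filter and 8 without TMM, and that filter left neither fall. Hs3st5 ran from -6.72 to -5.32 without 1 mouse and was at -4.76 with a term for library set, which moved Papss2 to -3.87.

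Of 10 genes that edit or degrade the chains, 1 was called in B1/P/Rbf against B1/P tumors in the edgeR fit by group. Naglu, a lysosomal glucosaminidase, rose from 16.6 ± 9.68 CPM in B1/P to 46.9 ± 15.3 CPM in B1/P/Rbf tumors (1.496, SE 0.35, edgeR adjusted p = 0.00875), a call lost with a term for library set. In P/Rbf against B1/P tumors Sulf1, which removes sulfate outside the cell, fell from 82.4 ± 69.2 to 17.8 ± 7.82 CPM (-2.21, SE 0.61, edgeR adjusted p = 0.0179), a call lost without B1/P tumor 4 (-1.67). In B1/P/Rbf against B1/P tumors Sulf1 was called lower by DESeq2 (-1.67, adjusted p = 0.0235). There edgeR called it lower without B1/P tumor 1 (-1.93) or without B1/P/Rbf tumor 1 (-2.38). Sulf1 and Sulf2 were both called higher in B1/P tumors than in gland (2.11, SE 0.73, and 1.88, SE 0.62, edgeR adjusted p = 0.0345 and 0.0271), together with Gusb (1.03, SE 0.32, adjusted p = 0.0208). For Sulf1 4 B1/P tumors were above all glands and 1 was below them all, while Sulf2 and Gusb did not overlap. Each of these 3 calls was lost without any 1 gland, that of Sulf1 also without B1/P tumor 2 or 4, that of Sulf2 without B1/P tumor 1 (1.28) and with a term for library set (1.52), and that of Gusb with this term (0.80) and the methods' filter.

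Matrix and chondroitin sulfate proteoglycans were called in 1 direction only between tumors. Of 5 matrix and other heparan sulfate proteoglycans, 3 fell in B1/P/Rbf against B1/P tumors: Tgfbr3 (betaglycan), from 136 ± 131 to 7.30 ± 8.49 CPM (-4.21, SE 0.97, edgeR adjusted p = 0.00757), Col18a1 (collagen XVIII), from 614 ± 281 to 113 ± 57.8 CPM (-2.45, SE 0.43, adjusted p = 0.00156), and Hspg2 (perlecan), from 391.9 ± 119 to 136 ± 78.8 CPM (-1.53, SE 0.50, adjusted p = 0.044). The fall of Tgfbr3 was -5.23 without B1/P/Rbf tumor 1 and -3.49 without B1/P tumor 3. Tgfbr3 and Col18a1 fell in P/Rbf tumors as well. Of 7 tested chondroitin sulfate proteoglycans, 3 fell in B1/P/Rbf and 5 in P/Rbf tumors, among them Vcan (versican), from 249 ± 91.9 to 14.6 ± 6.22 CPM in B1/P/Rbf tumors (-4.09, SE 0.65, adjusted p = 0.000934), Acan (aggrecan of cartilage), at 23.5 ± 33.1 against 0.205 ± 0.208 CPM, and Ncan, at 0.417 ± 0.478 against 0.0232 ± 0.024 CPM. The 3 falls became 5 without B1/P/Rbf tumor 1 and 1 with the methods' filter, and the 5 in P/Rbf tumors became 3 without B1/P tumor 4, without P/Rbf tumor 2 or 4 or when only these groups were fitted and 2 with that filter. Acan ran from 0.946 to 81.6 CPM across the B1/P tumors. It was high in that group alone, with 0.371 ± 0.682 CPM in P/Rbf tumors. Its log2 changes and calls are therefore descriptive only, though counted above. Its log2 change of -6.82 in B1/P/Rbf tumors became -7.56 to -5.44 on leaving out 1 tumor. Vcan (4.48, SE 0.83), Col18a1 (3.06, SE 0.54), Bgn (2.37, SE 0.60) and Agrn (2.29, SE 0.50) were higher in B1/P tumors than in gland, where Acan had no counts. The Hspg2 fall was lost in 8 of 10 fits without 1 tumor and that of Ncan, with at most 2 counts in any tumor with T121, in 4 of the 8 such fits that tested it. With a term for library set both were lost, Ncan at a log2 change of -1.61, and Ncan was lost in limma-voom too (-2.30). Markers of cartilage and stroma moved with both lists. The 4 chondrocyte markers summed to 24.9 to 991 CPM in B1/P tumors and to at most 5.96 CPM in all other samples, and 2 of the 7 fibroblast markers were called lower in B1/P/Rbf and 4 in P/Rbf against B1/P tumors. The part of these cells in the levels of the proteoglycans was not tested.

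Among 11 partners and shedding enzymes of the core proteins, Adam10, a membrane protease that can cut ectodomains from the cell surface, stood out. It was at 209 ± 68.1 CPM in B1/P tumors, and neither the B1/P/Rbf tumors, at 1058 ± 268 CPM, nor the P/Rbf tumors, at 1210.4 ± 412 CPM, overlapped with them (2.34, SE 0.28, and 2.54, SE 0.28, edgeR adjusted p = 0.000132 and 9e-05). Sdcbp2 (syntenin-2), which binds syndecan tails, rose in B1/P/Rbf tumors (2.02, SE 0.53, edgeR adjusted p = 0.0156), a call lost with a term for library set and when only these groups were fitted, and Notum, an esterase that inactivates Wnt proteins, fell (-2.05, SE 0.65, adjusted p = 0.0395), the latter a call lost in 7 of 10 fits without 1 tumor and at -2.72 without B1/P/Rbf tumor 4. Notum was higher in B1/P tumors than in gland (4.59, SE 0.94), as were Mmp9 (3.13, SE 1.03) and Cask (1.56, SE 0.40), which binds syndecan tails, the call of Mmp9 being lost without any 1 gland, without B1/P tumor 2 (2.17), in limma-voom and with a term for library set. Against gland, 7 of the list rose in B1/P/Rbf and 8 in P/Rbf tumors and none fell, beside 17.1% and 17.4% of all genes called higher. The 7 became 4 without any 1 gland, 3 with the methods' filter and 2 with a term for library set, and the 8 became 5 with that filter.

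None of 14 growth factors that bind heparan sulfate was called in B1/P/Rbf against B1/P tumors in the edgeR fit by group, where 2 had an unadjusted p under 0.05. DESeq2 and limma-voom each called Fgf7 lower there. So did edgeR with a term for library set (-2.50, adjusted p = 0.0399) and without B1/P/Rbf tumor 1 (-3.31) or B1/P tumor 5 (-2.29). In P/Rbf against B1/P tumors Fgf7 (-2.30, SE 0.73) and Fgf2 (-2.003, SE 0.56) fell, the first a call lost in 5 of 10 fits without 1 tumor and both lost in limma-voom and with a term for library set. In B1/P tumors against gland Fgf10, made by mammary stroma, fell from 47.5 ± 8.15 to 0.232 ± 0.11 CPM (-7.64, SE 1.16, edgeR adjusted p = 9.85e-05), as did Fgf2 (-2.60, SE 0.62) and Cxcl12 (-2.03, SE 0.69), and Hbegf (2.09, SE 0.53) and Pdgfb (1.86, SE 0.41) rose. Fgf10 was also low in B1/P/Rbf and P/Rbf tumors, at 0.298 ± 0.485 and 0.0573 ± 0.11 CPM. Hbegf lost its call with a term for library set (1.29), and Cxcl12 with that term, without TMM, without any 1 gland and without B1/P tumor 1, 4 or 5.

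**Figure D4:**
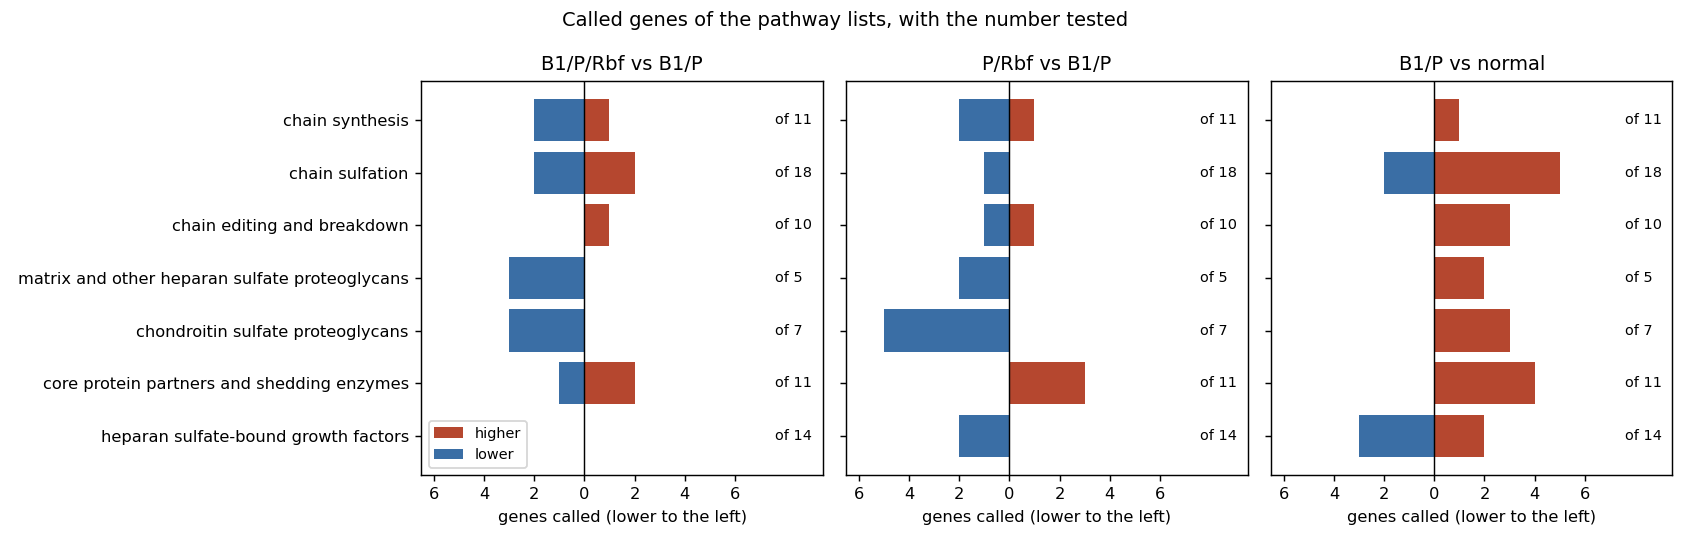
Number of genes called higher (right) and lower (left) in each of the 7 pathway lists in 3 comparisons, with the number tested at the right of each panel. Matrix and chondroitin sulfate proteoglycans were called only lower in tumors with T121 against B1/P tumors, and only higher in B1/P tumors against gland.

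Chondrocyte and Schwann cell marker sums separated B1/P tumors from tumors with T121, as Gpc3, Gpc6 and Hpse2 did. Fibroblast and myoepithelial sums overlapped. Of 5 endothelial markers 0 were called in B1/P/Rbf or P/Rbf against B1/P tumors. Of 5 macrophage markers 0 were called in the first of these comparisons and 1, lower, in the second. Fibroblast markers (7 genes) summed to 2552 to 12660 CPM in B1/P, 797 to 4538 in B1/P/Rbf, 870 to 4011 in P/Rbf tumors and 1334 to 2391 in glands, with all 7 above the floor in every group. Of these, 3 were called higher in B1/P tumors against gland. B1/P tumor 2, with the most fibroblast marker RNA of all samples, had the least Gpc3 and Gpc6 among B1/P tumors. B1/P/Rbf tumor 1, whose fibroblast sum of 4538 CPM exceeded those of 3 B1/P tumors, had 4.25 CPM of Gpc3, 3.23 CPM of Gpc6 and 1 count of Hpse2.

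Myoepithelial markers (6 genes, none at the floor in a whole group) summed to 332 to 1855 CPM in B1/P, 35.5 to 276 in B1/P/Rbf, 64.9 to 1203 in P/Rbf tumors and 280 to 409 in glands. P/Rbf tumor 3, at 1203 CPM, had 4.07 CPM of Gpc3, 1.06 CPM of Gpc6 and no count of Hpse2, while B1/P tumor 2, at 332 CPM, had 16.6, 11.8 and 6.52 CPM. Of the chondrocyte markers, with the sums given above, Matn1 was at the floor in all groups. Schwann cell markers summed to 167 to 630 CPM in B1/P tumors, 118 to 209 in glands and at most 4.85 in tumors with T121. Of that last list Sox10, a transcription factor not restricted to Schwann cells, made up most of the sum in B1/P tumors at 427 ± 165 CPM, against 25.5 ± 3.01 CPM in glands. Skeletal muscle markers summed to 564 CPM in B1/P tumor 5 and to 0.704 to 8.34 CPM in the other 4 B1/P tumors, against 3.89 to 20.5 CPM in B1/P/Rbf, 0.201 to 2.89 CPM in P/Rbf tumors and 21543 to 42883 CPM in glands. Of the 5 muscle markers 4 were called lower in each T121 group against B1/P tumors, while Ckm was at the floor in both T121 groups and Myh1 in B1/P/Rbf. The part of these cell types in the levels of Gpc3, Gpc6 and Hpse2 was not tested.

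**Figure D5:**
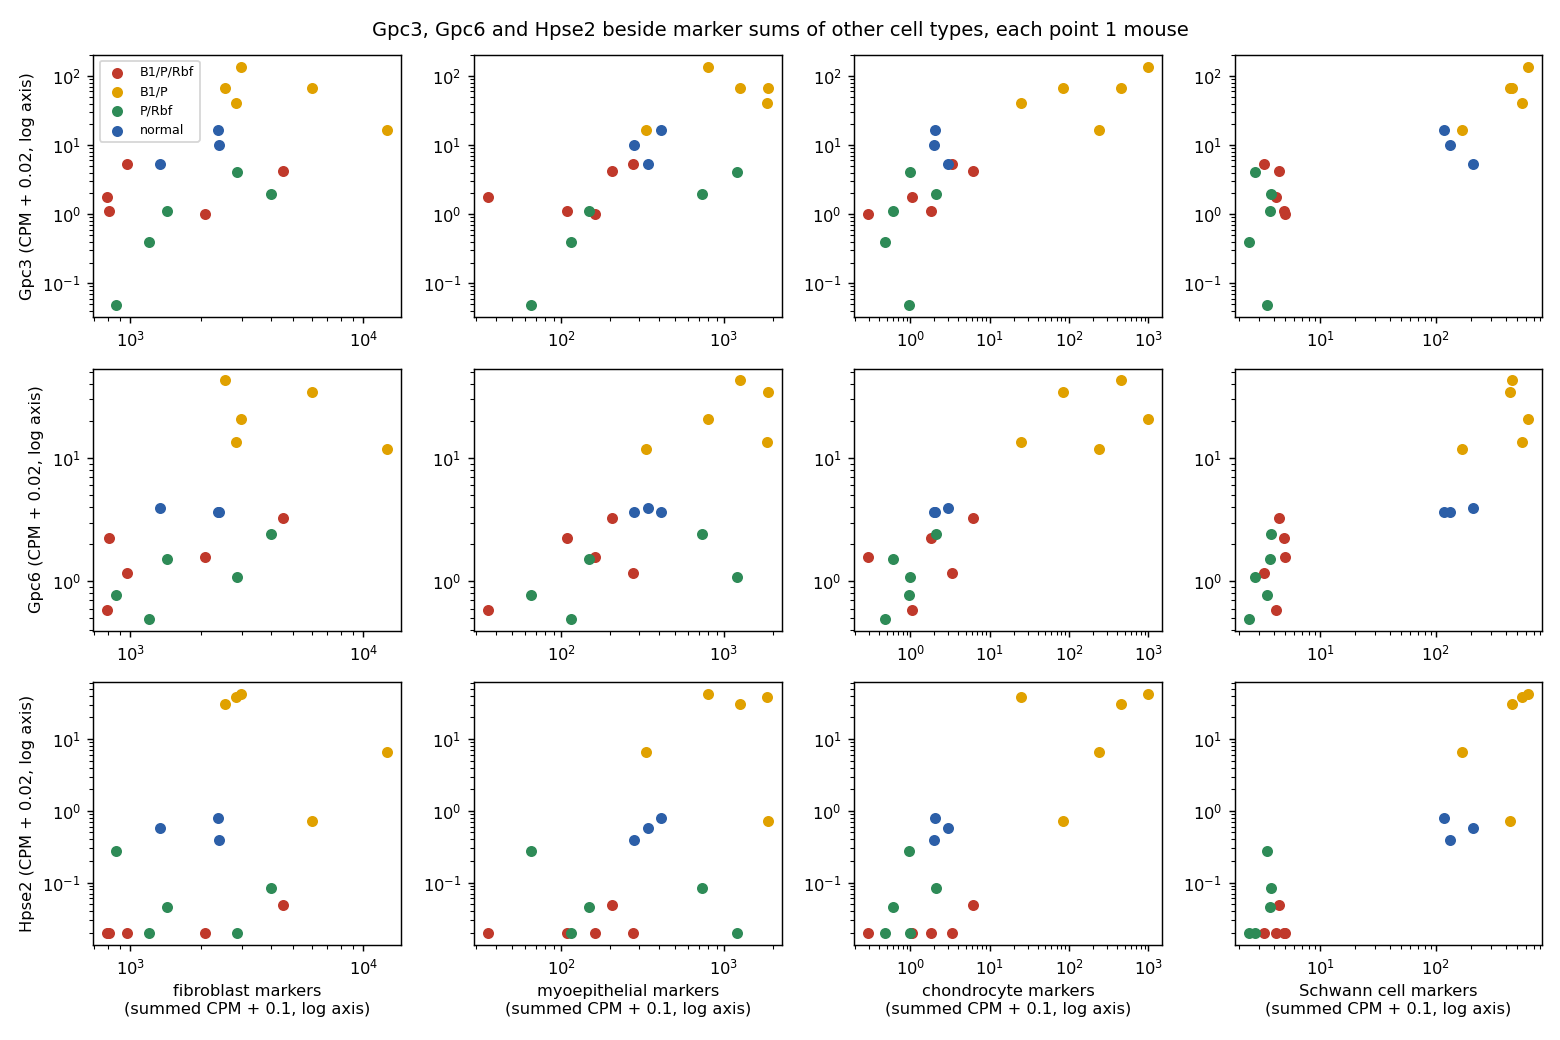
Gpc3, Gpc6 and Hpse2 (rows, CPM plus 0.02) against summed markers of fibroblasts, myoepithelial cells, chondrocytes and Schwann cells (columns, CPM plus 0.1), all on log axes, with 1 point per mouse. B1/P tumors and tumors with T121 overlapped along the fibroblast and myoepithelial sums and did not overlap along the other sums or in the 3 genes.

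The libraries were placed in 2 sets inferred from fold changes in the study's supplement. No sample label names these sets, and no source used here states their nature. The first holds every B1/P/Rbf tumor with numbers 1 to 3 of B1/P, and numbers 4 and 5 of B1/P share the other with all P/Rbf tumors and glands. Within the first set Gpc3 was at 16.6 to 66.3 CPM in B1/P against 0.993 to 5.38 CPM in B1/P/Rbf tumors, and within the second at 41.0 to 138 against 0.0288 to 4.07 CPM in P/Rbf tumors. Gpc6 separated the groups within both sets too, at 11.8 to 42.6 against 0.567 to 3.23 CPM and at 13.4 to 20.8 against 0.477 to 2.40 CPM. Sdc1 did so likewise, at 242 to 568 against 667 to 1053 CPM and at 123 to 437 against 508 to 2409 CPM. Hpse separated the groups within the second set, at 2.40 to 3.52 against 8.43 to 48.1 CPM, and overlapped within the first. B1/P/Rbf tumors share no set with P/Rbf tumors or with glands, so both of these comparisons rest on B1/P tumors for any term of library set.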

How the data were processed

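RNA from 15 mammary tumors and 3 normal mammary glands, 1 per mouse, had been sequenced from pooled, stranded, paired-end libraries. The authors deposited expected counts per gene from RSEM, and the submitters' processing notes name FastQC 0.11.5, cutadapt 1.18, Picard 1.119, RSEM 1.3.0 and DESeq2 1.28.1. The study's methods name a human reference, but all 55450 identifiers and symbols match mouse GENCODE M21 on GRCm38. Whether counting used strand is not given in the sources used here. 5.61% of the expected counts were not whole and were rounded.

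Genes were kept by filterByExpr (minimum count 10), scaled by TMM and tested in edgeR 4.0.16 (R 4.3.3) by the quasi-likelihood test in 1 fit of 18 samples by group, with Benjamini-Hochberg adjustment over 19186 genes and a threshold of 0.05. SE is the log2 change divided by the square root of its F statistic. P-values measure the spread between mice. Counts of 2 replicates never agreed within sampling noise (chi-square per degree of freedom 25.0 or more). Total counts had a median of 33802255 per library, and 3 counts per library were taken as the floor, which covers counting error only. Levels between genes are CPM per kb of exon. The calculation was tested on simulated counts.

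Hpse2 was given without a test. The members and lists were chosen with earlier results of these data known. Named were the 10 members, Brca1 and Trp53, and from each pathway list the called gene with the largest rise and the largest fall per comparison, up to 3 each way in B1/P/Rbf against B1/P tumors and in B1/P tumors against gland. Col18a1 and Fgf2 in P/Rbf against B1/P tumors, Fgf7 in B1/P/Rbf against B1/P tumors, and Gpc2 and Sox10 were chosen after their values were seen. Some genes of the lists are not reported here. Alternatives were DESeq2 1.42.0, limma-voom (limma 3.58.1) with quantile normalization, no TMM, no filter, the methods' filter (log2 CPM of 6 in 6 samples), only the groups compared, a library-set term and leaving out each mouse. The same alternatives for pathway lists and genes were added after seeing the data.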

Additional observations from a re-analysis of the deposited data

Results flagged for a closer look

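Of 27 groups of 5 tumors (9 genes, without Hpse2, in 3 tumor groups) 1 held a tumor set apart from the other 4 by a wide gap, and chance gives about 1 in 20 groups. Sdc1 was at 2409 CPM in P/Rbf tumor 2, the highest of its group.

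The change against normal gland differed between tumor groups for several genes, tested as the difference between the tumor groups by the edgeR quasi-likelihood test. In B1/P/Rbf against B1/P tumors it differed by -4.60 on the log2 scale for Gpc3 and by -3.82 for Gpc6. In P/Rbf against B1/P tumors it differed by -5.44 for Gpc3, by -4.31 for Gpc6, by 1.48 for Sdc1 and by 1.89 for Hpse.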

How the results depend on the processing

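The methods' filter on low values left 4551 genes and lowered the number called to 886, 866 and 3 in B1/P/Rbf against B1/P, P/Rbf against B1/P and B1/P/Rbf against P/Rbf tumors (3195, 3684 and 54 as reported), and to 1600, 1760 and 1669 in B1/P, B1/P/Rbf and P/Rbf tumors against gland (6481, 7108 and 7230 as reported). It left 0, 1, 2 and 1 of the heparan sulfate genes called in B1/P/Rbf against B1/P, P/Rbf against B1/P, B1/P against gland and P/Rbf against gland (2, 4, 5 and 4 as reported). Of the 10 genes 5 were removed, while Sdc3 and Gpc4 in B1/P and Sdc3 in P/Rbf tumors against gland stayed in the fit and missed the threshold. Fitting only the groups compared gave 2039, 1507 and 1 genes called in the 3 tumor comparisons, 2 of the heparan sulfate genes in P/Rbf against B1/P and 3 in B1/P/Rbf against gland. A library-set term gave 2008 in P/Rbf against B1/P, 5 in B1/P/Rbf against P/Rbf and 3879 in B1/P/Rbf against gland, and 3 of the heparan sulfate genes in B1/P against gland. B1/P/Rbf against P/Rbf gave 1014 in DESeq2, of which 57.9% were higher against 77.8% of 54 in edgeR, and 26 in limma-voom. Without TMM 3 of the heparan sulfate genes were called in B1/P/Rbf against gland, and in limma-voom 2 in P/Rbf against gland. Apart from the stated removal of genes, the cause was not tested. Without TMM the share of called genes that were higher than in gland was 67.8%, 64.0% and 59.9% in B1/P, B1/P/Rbf and P/Rbf tumors, against 49.9%, 46.0% and 46.1% with it.

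Leaving out 1 mouse gave 2315 to 3467, 2763 to 3924 and 9 to 131 genes called in the 3 tumor comparisons, and 4320 to 6435, 4993 to 6930 and 5157 to 7259 against gland. Of the heparan sulfate genes it gave 2 to 3, 2 to 4 and 0 to 0, and 2 to 5, 1 to 1 and 1 to 5 against gland.

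Only changes that missed the threshold changed sign. For Sdc3 in P/Rbf against B1/P tumors the log2 change was -0.11 in limma-voom, -0.10 without TMM and -0.15 with the methods' filter, for Sdc2 and Gpc1 in B1/P/Rbf against P/Rbf tumors it was 0.036 and 0.018 in limma-voom, and for Gpc6 there it was -0.30 with a library-set term. Against gland, B1/P tumors gave 0.22 for Gpc1 and 0.17 for Hpse without TMM, B1/P/Rbf tumors gave -0.22 for Gpc1 with the methods' filter and -0.61 for Sdc3 and -0.93 for Hpse with a library-set term, and P/Rbf tumors gave -0.091 for Gpc1 with the methods' filter. Leaving out 1 mouse gave ranges across 0 in P/Rbf against B1/P tumors for Sdc3 (-0.27 to 0.45) and Sdc4 (-0.60 to 0.29), in B1/P/Rbf against P/Rbf tumors for Sdc1 (-0.53 to 0.20), Sdc2 (-0.48 to 0.26) and Gpc4 (-0.085 to 0.33), and against gland for Gpc1 (-0.31 to 0.044) and Hpse (-0.72 to 0.079) in B1/P and for Gpc1 (-0.089 to 0.29) in B1/P/Rbf tumors.

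No paired analysis was possible because the labels give the groups no shared replicate numbers. Leaving out any 1 of the 3 glands ended the calls of Sdc3, Sdc4 and Gpc4 in B1/P and of Sdc3 and Gpc6 in P/Rbf tumors against gland, while Sdc1 kept its call in all 3 comparisons with gland. Below about 3 counts per library levels of Hpse2 cannot be resolved.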
